A study of Mus musculus with 31 samples.

Results

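The 10 genes described here belong to the ATF4 arm of the integrated stress response and were followed through 3 RNA-seq experiments on Panc02 mouse pancreatic cancer cells. They were taken by symbol from the deposited count tables, from a list drawn up with earlier results of these data known: Atf4, Atf5, Cebpb, Ddit3, Trib3, Ppp1r15a, Chac1, Asns, Eif4ebp1 and Sesn2. All 10 were found among the 55487 to 56980 genes of each table. Ddit3 had 2 entries, and the one with most counts was used, since the other held 5 to 26 counts in a whole table.

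The integrated stress response begins when one of a few kinases, which sense starvation, unfolded protein, heme shortage or double-stranded RNA, phosphorylates the translation initiation factor eIF2. Bulk protein synthesis then slows while a small set of mRNAs, that of Atf4 among them, is translated better, so that the ATF4 protein can rise without its mRNA. ATF4 is a bZIP transcription factor that pairs with C/EBP proteins and switches on genes for amino acid supply, redox balance and, under lasting stress, cell death. In solid tumors the pathway is best known for helping cells through poor oxygen and nutrient supply. RNA-seq counts report mRNA only, so neither eIF2 phosphorylation nor ATF4 protein was measured here.

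The first experiment grew Panc02 spheroids in Matrigel with serum-containing DMEM (Ctrl), with medium from unstimulated bone marrow-derived macrophages (M0-CM), or with medium from macrophages given IFNγ and lipopolysaccharide (M1-CM). The second grew wild-type (WT) cells and cells given a CRISPR/Cas9 guide against the chemokine gene Cxcl5 (KO) as monolayers (2D) or as spheroids (3D). The third, the rescue experiment, compared WT and KO spheroids with KO spheroids overexpressing a stabilized mutant of Hif1a (Hif1a OE) or Myc (Myc OE), so that both overexpressing groups also carried the Cxcl5 knockout. Guides were delivered in lentiCRISPRv2 and the overexpressed genes in a pLPCX retrovirus, with puromycin selection. Whether a line is 1 clone, and whether WT cells carried a vector, is not given in the sources used here. There were 3 libraries a group, but 2 in rescue WT and 2 in rescue KO. The study's methods speak in general of biological replicates and independent experiments, without saying so of each RNA-seq library, and the labels do not say that replicates were separate cultures, so p-values measure only the spread between these libraries, which may be technical.

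Library totals ran from 41542533 to 78498230 counts, and each member had between 265 and 31823 counts in every library. Levels are given as CPM, the counts of a gene scaled to a common library size with TMM factors, and are comparable within an experiment only. A gene was called when edgeR's quasi-likelihood test gave an adjusted p under 0.05 over all genes tested. Cxcl5 itself was lower in the 2D KO libraries (32.7 to 37.4 CPM) than in 2D WT (45.6 to 49.1 CPM). It was higher in the libraries labelled 3D KO (40.9 to 65.5 CPM) than in 3D WT (24.5 to 28.5 CPM), so in 3D its mRNA did not fall with the label. Counts of mRNA alone cannot check a knockout label, and the paper checked the knockout by immunoblot for CXCL5 protein. Cxcl5 mRNA was lower in rescue KO (36.6 and 40.2 CPM) than in rescue WT (64.2 and 67.7 CPM). Myc stood at 397 to 549 CPM in Myc OE against 22.3 and 20.02 CPM in rescue KO, whereas Hif1a was higher than in rescue KO (144 and 134 CPM) both in Hif1a OE (243 to 296 CPM) and in Myc OE (241 to 271 CPM). In rescue WT Hif1a stood at 304 and 324 CPM, above every Hif1a OE library. The keratins Krt8 and Krt18 were expressed in every group, while the epithelial genes Epcam and Cdh1 and the macrophage genes Adgre1, Itgam and Csf1r averaged under 1 CPM in all. Other macrophage genes were detected. Lyz2 averaged 0.89 CPM in 2D WT and up to 13.6 CPM in Myc OE, and Cd68 1.27 CPM in 2D KO and up to 9.75 CPM in rescue KO. Ptprc averaged 1.73 CPM in rescue WT and under 1 CPM elsewhere. The rescue WT libraries held 27353 to 27506 genes with at least 10 counts, against 19732 to 21560 in the rest of that experiment.

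Scaling by library totals in place of TMM shifted all genes together in several comparisons. Their median log2 difference moved from -0.04 to 0.35 for 3D KO against 3D WT, where the calls turned from 43.9% to 75.8% higher, and from 0.00 to -0.21 for 3D WT against 2D WT, where they turned from 50.2% to 34.7% higher. In the interaction of genotype and culture it moved from -0.05 to 0.32 and the share higher from 40.9% to 77.1%, and for 3D KO against 2D KO it moved from 0.11 to 0.26. For Hif1a OE and Myc OE against rescue KO it moved from 0.16 to 0.00 and from 0.11 to -0.11, with the share higher going from 57.8% to 43.6% and from 54.6% to 36.3%. Against rescue WT it moved from -0.10 to -0.27 for Hif1a OE and from -0.17 to -0.46 for Myc OE, with the share going from 57.5% to 38.1% and from 53.7% to 28.5%, and with DESeq2's size factors to 40.5% and 42.2%. For Myc OE against Hif1a OE it moved from -0.01 to -0.13, and the share from 49.5% to 36.1%. Measured from the median of all genes, no member's difference moved by more than 0.13 between these scalings in any of the 14 comparisons.

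The members lie on 7 chromosomes of the mouse genome (build GRCm38, annotation GENCODE M21). The transcription factors are Atf4 (chr15:80255184-80257541, plus strand), Atf5 (chr7:44812256-44816658, minus), Cebpb (chr2:167688915-167690418, plus) and Ddit3, which encodes CHOP (chr10:127290774-127296288, plus). The feedback regulators are Trib3, a pseudokinase that binds ATF4 and AKT (chr2:152337422-152344032, minus), and Ppp1r15a, which encodes GADD34, the subunit that brings a phosphatase back to eIF2 (chr7:45522916-45526268, minus). The effectors are Chac1, which breaks down glutathione (chr2:119351229-119354381, plus), Asns, asparagine synthetase (chr6:7675169-7693254, minus), Eif4ebp1, a repressor of cap-dependent translation (chr8:27260329-27276674, plus), and Sesn2, which relays leucine shortage and oxidative stress to mTORC1 (chr4:132492032-132510501, minus). Ends of Atf5, Ddit3 and Ppp1r15a overlap genes of the opposite strand. Tmem189, on the opposite strand, covers Cebpb from its start to position 167689822, the larger part of the gene. Their transcripts share 99.4% identity over 320 bases. Sesn2 overlaps the noncoding Gm12981 on its own strand, and Eif4ebp1 shares 93.3% identity over 357 bases with the processed pseudogene Gm14143. The library kit kept strand, but whether the counting used it is not given in the sources used here, so reads in the shared stretches may be split.

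RefSeq promoter windows (250 bases before to 50 after the first transcribed base, build GRCm38.p6) were at hand for 9 of the 10 members. They are shown because ATF4 with a C/EBP partner binds a composite site, the C/EBP-ATF response element TGATGNAAN. On either strand it was found in Asns, Chac1 and Trib3, which is 3 of 9 members, while 4.50% of 27025 genes with windows hold it. Ppp1r15a held the cyclic AMP response element TGACGTCA, found in 2.03% of these genes. Capitals mark the match, read on the strand of the gene, and positions count from the first transcribed base.
Asns, chr6:7693214-7693242, minus strand, match at -23 to -15: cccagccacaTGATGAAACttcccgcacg
Chac1, chr2:119351018-119351086, plus strand, match at -194 to -186: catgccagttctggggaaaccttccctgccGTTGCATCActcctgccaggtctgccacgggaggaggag
Trib3, chr2:152344029-152344057, minus strand, match at 14 to 22: ttagctcaggTTTACATCAgccgggcggg
Ppp1r15a, chr7:45526269-45526310, minus strand, match at -12 to -5: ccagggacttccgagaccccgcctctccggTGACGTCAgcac
In Chac1 and Trib3 the letters run on the opposite strand to the gene. The hypoxia response core ACGTG was found in Asns, Ddit3 and Ppp1r15a, beside 21.8% of all genes with windows, and its longer E-box form CACGTG, the CRE variant TGACGTAA and the ER stress response element in none of the 9. A match is a string of letters in a window and not a measured binding site.

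Per kilobase of exon, Atf4 had the highest level of the 10 members in every group of the 3 experiments, with 166 CPM per kb in 3D WT and 64.4 CPM per kb in the libraries labelled 3D KO. Asns followed in 3D WT with 115 CPM per kb, and then Eif4ebp1 with 72.7 CPM per kb. Cebpb (24.7 CPM per kb), Trib3 (19.5) and Ddit3 (18.0) came next, and Ppp1r15a, Chac1, Atf5 and Sesn2 lay between 7.59 and 13.0 CPM per kb.

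Conditioned medium called none of the 10 members in any of its 3 comparisons. M1-CM raised Cxcl5 from 78.1 to 117 CPM in Ctrl to 662 to 719 CPM, but only 0.0156% of 19207 genes were called for M1-CM against Ctrl, 0.0156% for M1-CM against M0-CM and 0% for M0-CM against Ctrl. At an unadjusted p under 0.05 edgeR gave 903, 498 and 569 genes, among them no member, 2 members (Ppp1r15a and Trib3) and no member. DESeq2 called 105, 34 and 22 genes, again without a member. Trib3 stood at 15.9, 6.97 and 18.4 CPM in Ctrl, at 22.5, 19.9 and 27.6 CPM in M0-CM and at 10.1, 9.48 and 16.4 CPM in M1-CM. Ppp1r15a stood at 18.4, 15.2 and 26.8 CPM in Ctrl, at 21.9, 22.2 and 33.6 CPM in M0-CM and at 12.5, 12.9 and 17.7 CPM in M1-CM. For both genes every M1-CM library lay below every M0-CM library, while Ctrl overlapped M1-CM. Their fitted log2 differences between M1-CM and M0-CM were -0.96 ± 0.35 (SE) and -0.85 ± 0.26, with an adjusted p of 0.989 each in edgeR's quasi-likelihood test. In all, 5 members (Atf4, Trib3, Ppp1r15a, Chac1 and Asns) lay wholly below M0-CM in M1-CM, as did 4.03% of genes tested, and 3 (Trib3, Asns and Eif4ebp1) lay wholly above Ctrl in M0-CM, as did 5.24%. The spread within groups was wide. Atf4 stood at 281, 154 and 304 CPM in M1-CM.

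Growth as WT spheroids raised 6 of the 10 members over WT monolayers and lowered 1, while 22.2% and 22.0% of 21367 genes tested were called higher and lower. The 6 were both feedback regulators, CHOP and 3 effectors. Ppp1r15a stood at 6.99, 5.06 and 7.40 CPM in 2D WT and at 40.9, 38.2 and 34.9 CPM in 3D WT. Trib3 stood at 9.13, 5.83 and 7.79 CPM in 2D WT and at 44.4, 33.2 and 46.6 CPM in 3D WT. Ddit3 stood at 11.8, 10.01 and 11.7 CPM in 2D WT and at 28.5, 38.0 and 26.1 CPM in 3D WT. None of these ranges overlapped, and the rises came to 5.87-fold for Ppp1r15a (log2 difference 2.55 ± 0.14, SE, adjusted p = 8.63e-09), 5.48-fold for Trib3 (2.45 ± 0.17) and 2.76-fold for Ddit3 (1.47 ± 0.15). Chac1 (1.29 ± 0.11), Sesn2 (1.01 ± 0.10) and Eif4ebp1 (1.00 ± 0.10) also rose without overlap, Eif4ebp1 from 84.9, 71.5 and 82.4 CPM to 169, 138 and 172 CPM.

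Atf4 and Asns, the gene most abundant per kilobase and the classic target of amino acid shortage, did not follow. Atf4 stood at 424, 391 and 436 CPM in 2D WT and at 401, 399 and 377 CPM in 3D WT, and the ranges overlapped. Its difference of -0.09 ± 0.11 had an interval of 2 SE from -0.31 to 0.13, and with library totals it was -0.30 and called (adjusted p = 0.0113), which is -0.09 from the median of all genes on both scalings. Asns stood at 300, 294 and 309 CPM in 2D WT and at 334, 295 and 316 CPM in 3D WT, a difference of 0.07 ± 0.09. Cebpb, whose libraries spread from 27.6 to 50.02 CPM within 2D WT alone, differed by -0.04 ± 0.23. Atf5 was called lower (-0.29 ± 0.11, adjusted p = 0.0455), but its ranges overlapped (19.6 to 24.4 CPM against 16.8 to 20.04 CPM) and the call was lost with DESeq2 and when any of 8 single libraries was left out. Krt8 and Krt18 with the other epithelial markers summed to 839 to 1083 CPM in 3D WT and 536 to 586 CPM in 2D WT, and their part in these differences was not tested. The study's methods describe cultures of Panc02 cells only, with no other cell type added. In bulk libraries such as these, fewer cells of a kind within the line and less RNA per cell cannot be told apart.

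**Figure D1:**
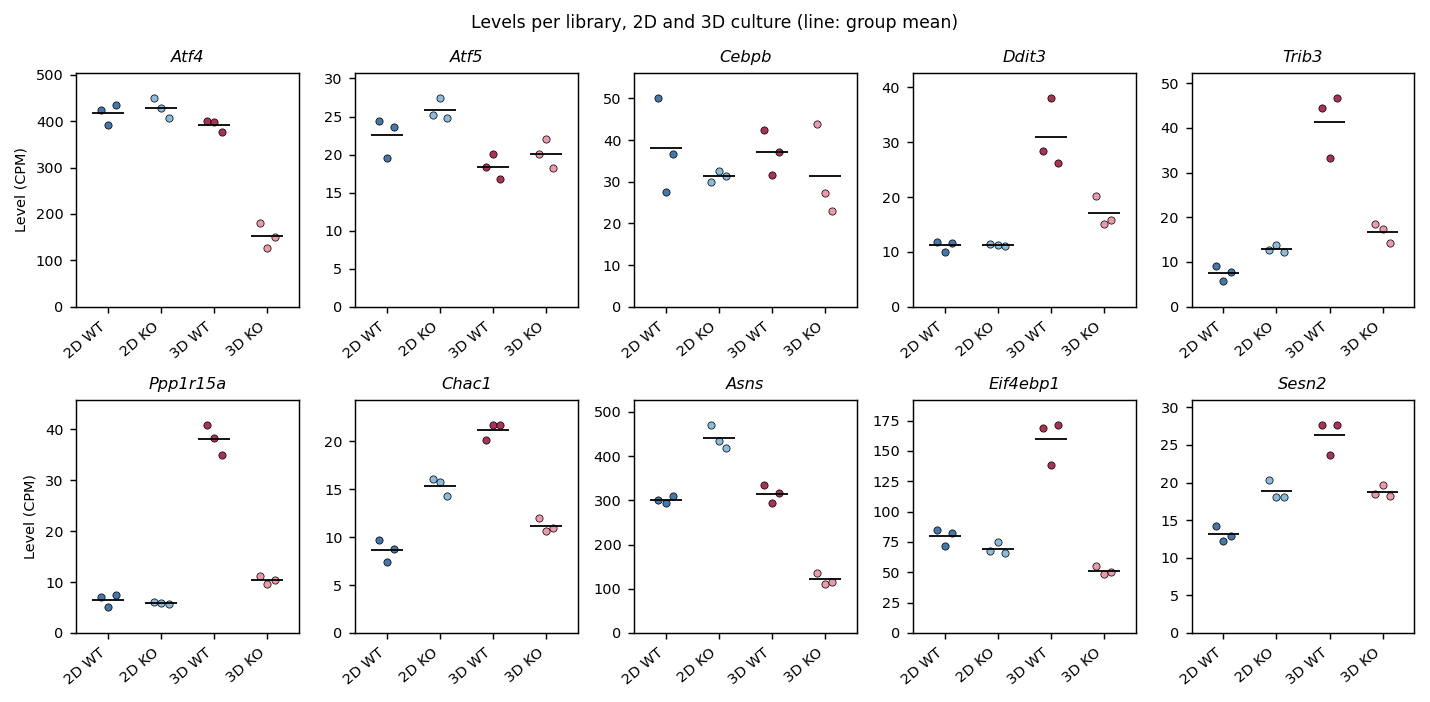
Level of each of the 10 genes (vertical axis, CPM, from 0) in every library of the 2D and 3D experiment, with 3 points a group and a line at the group mean. Ppp1r15a, Trib3, Ddit3, Chac1, Eif4ebp1 and Sesn2 were highest in 3D WT, whereas Atf4 and Asns were level between 2D WT and 3D WT and lowest in the libraries labelled 3D KO.

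In the libraries labelled 3D KO, 8 of the 10 members were lower than in 3D WT and none was higher, while 25.3% of genes tested were called lower and 19.7% higher. Atf4 stood at 180, 126 and 151 CPM in 3D KO against 401, 399 and 377 CPM in 3D WT, which is a 2.58-fold fall (log2 difference -1.37 ± 0.11, adjusted p = 4.87e-07). Asns stood at 137, 112 and 115 CPM against 334, 295 and 316 CPM, a 2.60-fold fall (-1.38 ± 0.09). Ppp1r15a stood at 11.3, 9.66 and 10.5 CPM against 40.9, 38.2 and 34.9 CPM, the largest fall of the members at 3.63-fold (-1.86 ± 0.13). All 3 ranges were apart. Eif4ebp1, at 54.8, 48.2 and 49.95 CPM, fell by 1.65 ± 0.10 on the log2 scale, Trib3 by 1.31 ± 0.17, Chac1 by 0.92 ± 0.11, Ddit3 by 0.86 ± 0.15 and Sesn2 by 0.49 ± 0.10. Atf5 (18.2 to 22.1 CPM against 16.8 to 20.04 CPM, 0.13 ± 0.11) and Cebpb (22.9 to 43.8 CPM against 31.7 to 42.5 CPM, -0.25 ± 0.23) overlapped between the groups.

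Library totals kept 7 of the 8 calls, since Sesn2 came to -0.10 (adjusted p = 0.485), and made Atf5 higher (0.52, adjusted p = 0.00618), and from the median of all genes these were -0.44 and 0.17. Cebpb read 0.12 with library totals, not called. Replicate 1 of 3D KO held the highest Cebpb level of its group, and without it Cebpb was called lower (-0.59, adjusted p = 0.0279) while all 8 calls stayed. Genes used as cell type markers also differed between these libraries of Panc02 cells. The epithelial markers summed to 187 to 219 CPM in 3D KO and 839 to 1083 CPM in 3D WT, and the 4 fibroblast markers to 393 to 446 CPM and 150 to 158 CPM. Within the epithelial list Krt8 averaged 147 CPM in 3D KO and 569 CPM in 3D WT, Krt18 58.4 and 347 CPM, and Krt19 0.13 and 43.7 CPM. The fibroblast list was split, since Pdgfra (214 CPM in 3D KO and 21.4 CPM in 3D WT) and Pdgfrb (206 and 88.3 CPM) were higher in 3D KO while Dcn (2.82 and 37.7 CPM) and Lum (2.85 and 6.87 CPM) were lower. The 6 macrophage markers summed to 14.6 to 23.9 CPM in 3D KO and 7.35 to 8.85 CPM in 3D WT. Of these Lyz2 averaged 11.7 and 2.73 CPM and Cd68 6.38 and 4.55 CPM, and the other 4, Adgre1 and Itgam among them, averaged under 1 CPM in both. Their part in the members' differences was not tested.

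In 2D the genotype difference ran the other way for 4 effector and feedback genes. Of the 10 members, 4 were higher in 2D KO than in 2D WT and none was lower, while 3.86% of genes tested were called higher and 3.17% lower. Asns stood at 472, 434 and 418 CPM in 2D KO against 300, 294 and 309 CPM in 2D WT, a log2 difference of 0.55 ± 0.09. Chac1 stood at 16.0, 15.7 and 14.3 CPM against 9.73, 7.41 and 8.77 CPM, a difference of 0.83 ± 0.11 and the largest of the members. Trib3 (0.77 ± 0.17) and Sesn2 (0.52 ± 0.10) rose with them, and the ranges of all 4 were apart. So were those of Atf5 (24.8 to 27.4 CPM in 2D KO, 19.55 to 24.35 CPM in 2D WT), which was not called. Atf4 stood at 450, 429 and 406 CPM in 2D KO and differed from 2D WT by 0.04 ± 0.11, with an interval of 2 SE from -0.18 to 0.26. Trib3 lost its call when 2D KO replicate 2 was left out, with a difference of 0.73. Epithelial markers summed to 438 to 476 CPM in 2D KO and 536 to 586 CPM in 2D WT, and fibroblast markers to 170 to 183 CPM and 169 to 183 CPM. Macrophage markers summed to 6.04 to 7.87 CPM in 2D KO and 1.90 to 2.66 CPM in 2D WT. Their part in the members' differences was not tested.

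Within the KO cells, 3D culture moved the members in both directions. Of the 10, 2 were higher in the libraries labelled 3D KO than in 2D KO and 5 were lower, while 28.7% and 28.2% of genes tested were called higher and lower. The higher ones were Ppp1r15a (6.001, 5.89 and 5.61 CPM in 2D KO, 11.3, 9.66 and 10.5 CPM in 3D KO, 0.84 ± 0.13) and Ddit3 (0.60 ± 0.15). Asns fell the most, by 1.86 ± 0.09 on the log2 scale, and Atf4 fell by 1.495 ± 0.11. Eif4ebp1 (-0.44 ± 0.10), Chac1 (-0.46 ± 0.11) and Atf5 (-0.36 ± 0.11) were also lower, Atf5 not with library totals (-0.20, adjusted p = 0.207). Trib3 stood at 12.7, 13.9 and 12.2 CPM in 2D KO and at 18.6, 17.5 and 14.2 CPM in 3D KO. That difference of 0.38 ± 0.17 missed the threshold (adjusted p = 0.067) but was called with DESeq2 (0.44, adjusted p = 0.0354). This comparison and that of 3D KO against 3D WT share the 3D KO libraries. Epithelial markers summed to 187 to 219 CPM in 3D KO and 438 to 476 CPM in 2D KO, and macrophage markers to 14.6 to 23.9 CPM and 6.04 to 7.87 CPM. Fibroblast markers summed to 393 to 446 CPM in 3D KO and 170 to 183 CPM in 2D KO, with Pdgfra alone averaging 214 and 9.10 CPM. The part of these markers in the members' differences was not tested.

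**Figure D2:**
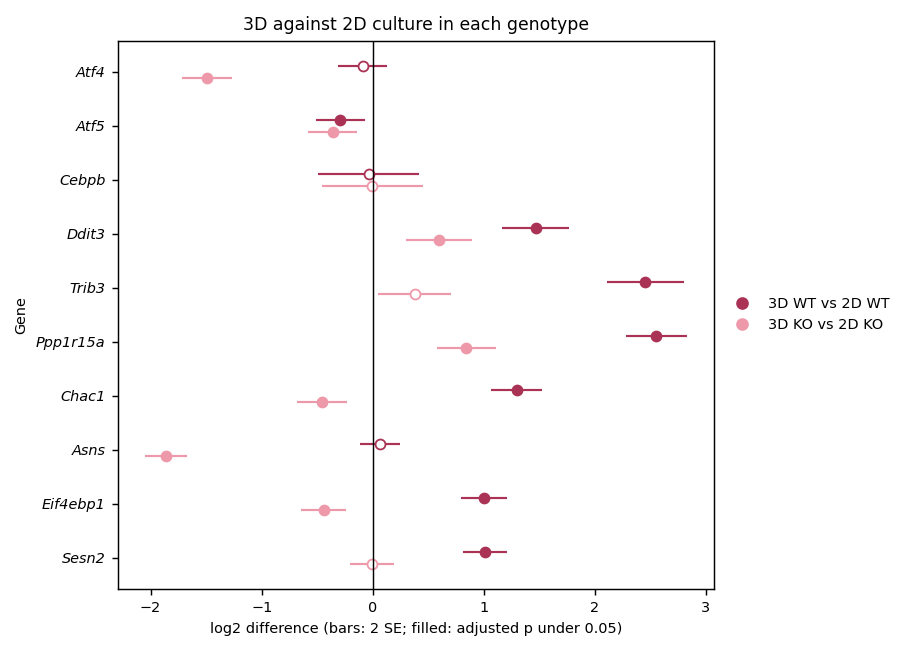
Difference between 3D and 2D culture for each gene in WT (dark points) and KO cells (light points), on the log2 scale (horizontal axis) with bars of 2 SE, filled where the adjusted p was under 0.05. Ppp1r15a, at 2.55 in WT and 0.84 in KO, was higher in 3D in both genotypes, while Atf4 lay at -0.09 in WT and -1.50 in KO.

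Whether the genotype difference depended on culture was tested as an interaction, 3D KO against 3D WT minus 2D KO against 2D WT. It was negative and called for 8 of the 10 members, while 16.1% of genes tested were called negative and 11.1% positive. Trib3 had the largest value at -2.08 ± 0.24 (adjusted p = 3.84e-05), followed by Asns at -1.93 ± 0.13, Chac1 at -1.75 ± 0.16, Ppp1r15a at -1.71 ± 0.19, Eif4ebp1 at -1.45 ± 0.15, Atf4 at -1.41 ± 0.16, Sesn2 at -1.01 ± 0.14 and Ddit3 at -0.87 ± 0.21. Atf5 (-0.07 ± 0.16) and Cebpb (0.03 ± 0.32) were not called. For Trib3, Asns, Chac1 and Sesn2 the genotype difference was called in both cultures with opposite sign, Sesn2 in 3D not with library totals, whereas for Atf4, Ppp1r15a, Eif4ebp1 and Ddit3 it was called in 3D alone. With library totals Ddit3 lost the call (-0.52, adjusted p = 0.0816), which is -0.85 from the median of all genes.

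**Figure D3:**
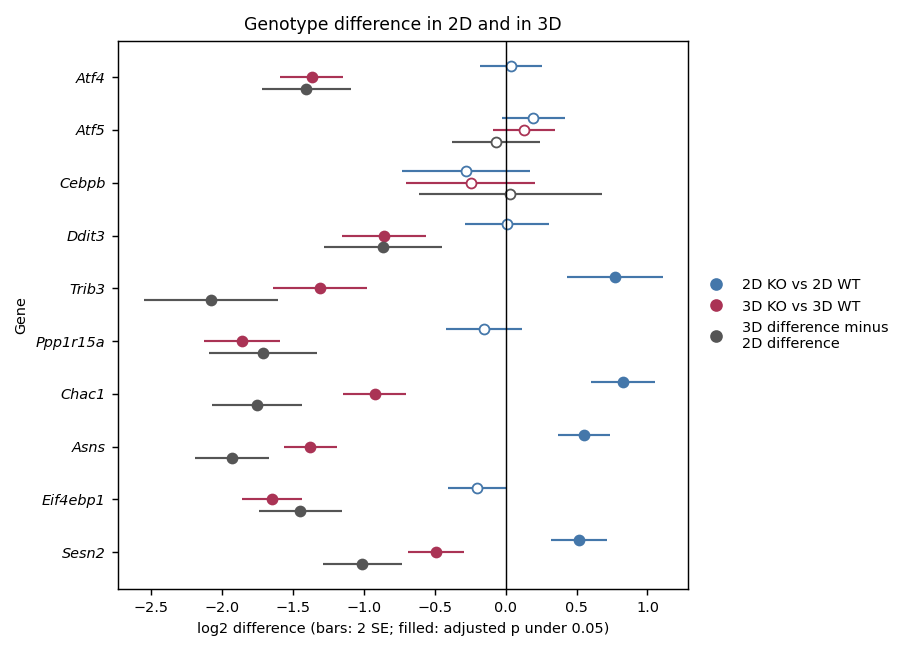
Difference between KO and WT in 2D, in 3D, and the 3D difference minus the 2D one for each gene, on the log2 scale (horizontal axis) with bars of 2 SE, filled where the adjusted p was under 0.05. In 3D the points of 8 genes lie between -0.49 and -1.86, while in 2D Trib3, Chac1, Asns and Sesn2 lie between 0.52 and 0.83.

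In the rescue experiment 9 of the 10 members were lower in rescue KO than in rescue WT, while 24.3% of 28730 genes tested were called lower and 17.6% higher. Chac1 stood at 59.3 and 55.7 CPM in rescue WT and at 5.499 and 5.543 CPM in rescue KO. Trib3 stood at 61.6 and 67.0 CPM in rescue WT and at 6.83 and 6.54 CPM in rescue KO. These were the largest falls, 10.4-fold for Chac1 (log2 difference -3.38 ± 0.14, adjusted p = 6.69e-08) and 9.62-fold for Trib3 (-3.27 ± 0.15). Atf4 stood at 448 and 430 CPM in rescue WT and at 122 and 119 CPM in rescue KO (-1.86 ± 0.12). Asns stood at 245 and 244 CPM against 55.8 and 53.2 CPM (-2.16 ± 0.11), and Ppp1r15a at 72.3 and 66.9 CPM against 17.6 and 15.9 CPM (-2.05 ± 0.13). In each case the 2 KO libraries lay far below the 2 WT libraries. Eif4ebp1 (-1.73 ± 0.14), Ddit3 (-1.50 ± 0.15), Cebpb (-1.16 ± 0.14) and Sesn2 (-0.79 ± 0.13) were lower too. Atf5, at 15.6 and 14.9 CPM in rescue WT and 13.3 and 14.2 CPM in rescue KO, differed by -0.15 ± 0.17. The median gene differed by -0.30 here. Among the epithelial markers, Krt19 averaged 9.87 CPM in rescue WT, 0.03 CPM in rescue KO, 0.32 CPM in Hif1a OE and 0.71 CPM in Myc OE. The epithelial markers summed to 821 to 864 CPM in rescue WT and 257 to 270 CPM in rescue KO, the fibroblast markers to 71.8 to 75.8 CPM and 447 to 454 CPM, and the part of these, and of the greater number of genes detected in rescue WT, in the members' differences was not tested.

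In Hif1a OE 8 of 10 were higher than in rescue KO, while 20.5% of genes tested were called higher, and in Myc OE 9 of 10 were, while 21.6% were. No member was called lower in either. Atf4 stood at 241, 276 and 220 CPM in Hif1a OE and at 328, 297 and 291 CPM in Myc OE, against 122 and 119 CPM in rescue KO. These are log2 differences of 1.03 ± 0.11 and 1.34 ± 0.11. Asns stood at 159, 151 and 134 CPM in Hif1a OE (1.44 ± 0.10) and at 233, 202 and 203 CPM in Myc OE (1.96 ± 0.10). Trib3 stood at 18.5, 16.6 and 14.7 CPM in Hif1a OE (1.31 ± 0.13) and at 32.3, 26.9 and 25.9 CPM in Myc OE (2.09 ± 0.13). The ranges of all 3 genes were apart from rescue KO in both. Chac1 (1.57 ± 0.13 and 1.69 ± 0.13), Eif4ebp1 (1.45 ± 0.13 and 1.44 ± 0.13), Ddit3 (1.13 ± 0.14 and 1.21 ± 0.14) and Cebpb (1.06 ± 0.13 and 0.90 ± 0.13) rose in Hif1a OE and Myc OE. The comparisons share the rescue KO libraries. Epithelial markers summed to 659 to 781 CPM in Hif1a OE and 240 to 285 CPM in Myc OE, against 257 to 270 CPM in rescue KO, and fibroblast markers to 131 to 171 CPM and 310 to 340 CPM, against 447 to 454 CPM. The macrophage markers summed to 20.1 to 25.7 CPM in Hif1a OE and 16.1 to 23.8 CPM in Myc OE, against 14.8 to 15.7 CPM in rescue KO. Both lists were split in Myc OE. Lyz2 averaged 13.6 CPM there and 5.04 CPM in rescue KO, but Cd68 averaged 4.62 and 9.75 CPM. Pdgfra was higher in Myc OE (149.2 CPM) than in rescue KO (110.5 CPM), while Pdgfrb, Dcn and Lum were lower. In Hif1a OE Lyz2 averaged 12.3 CPM and Cd68 9.55 CPM. The part of these markers in the members' differences, here and between the overexpressing lines, was not tested.

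For 3 members the call against rescue KO was not the same in both lines. Ppp1r15a stood at 29.7, 25.1 and 21.9 CPM in Hif1a OE, called higher than the 17.6 and 15.9 CPM of rescue KO (0.61 ± 0.12), and at 18.5, 18.0 and 18.8 CPM in Myc OE, a difference of 0.13 ± 0.12. Atf5 stood at 10.2, 12.5 and 14.2 CPM in Hif1a OE (-0.16 ± 0.16) and at 30.5, 25.8 and 22.03 CPM in Myc OE, called higher (0.93 ± 0.16). Sesn2 stood at 13.8, 15.7 and 18.6 CPM in Hif1a OE (-0.02 ± 0.12) and at 26.7, 26.4 and 24.3 CPM in Myc OE, called higher (0.67 ± 0.12), though not with library totals (0.33, adjusted p = 0.0863). Myc OE against Hif1a OE, the test of the difference between the lines, called 5 members higher and 1 lower, while 9.54% and 9.73% of genes tested were called higher and lower. Higher in Myc OE were Atf5 (1.08 ± 0.14), Trib3 (0.77 ± 0.11), Sesn2 (0.69 ± 0.11), Asns (0.53 ± 0.09) and Atf4 (0.31 ± 0.09, adjusted p = 0.0321), and lower was Ppp1r15a (-0.47 ± 0.11). The call on Atf4 was lost with library totals (0.21, adjusted p = 0.0637) and without any of 6 single libraries. Chac1, Ddit3, Cebpb and Eif4ebp1 differed by -0.16 to 0.13, none past the threshold.

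Both overexpressing lines were also set against rescue WT. In Hif1a OE 6 of 10 members were called lower and none higher, while 10.3% of genes tested were called lower, and in Myc OE 4 were called lower and 1 higher, while 14.7% and 17.1% were. As group means, rescue KO held 9.6% of the rescue WT level of Chac1, 10.4% of Trib3, 24.1% of Ppp1r15a and 27.5% of Atf4. Hif1a OE held 28.5% of Chac1, 25.8% of Trib3, 36.7% of Ppp1r15a and 55.9% of Atf4. Myc OE held 31.1% of Chac1, 44.1% of Trib3, 26.4% of Ppp1r15a and 69.6% of Atf4. These 4 genes were called lower than rescue WT in both lines, with log2 differences in Myc OE of -1.69 ± 0.12, -1.18 ± 0.12, -1.92 ± 0.12 and -0.52 ± 0.10. Asns (-0.73 ± 0.09) and Sesn2 (-0.81 ± 0.12) were lower in Hif1a OE, and Atf5 was higher in Myc OE (0.77 ± 0.16). Eif4ebp1 and Ddit3 stood at 82.2% and 77.4% of rescue WT in Hif1a OE and at 82.0% and 81.6% in Myc OE, not called in either. With DESeq2's Wald test both genes were called lower in each line, in Hif1a OE (adjusted p = 0.0102 for Eif4ebp1 and 0.00385 for Ddit3) and in Myc OE (0.00857 and 0.0164). For Myc OE the count of 4 rested on scaling, since 8 members were called lower with DESeq2's size factors and 9 with library totals.

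**Figure D4:**
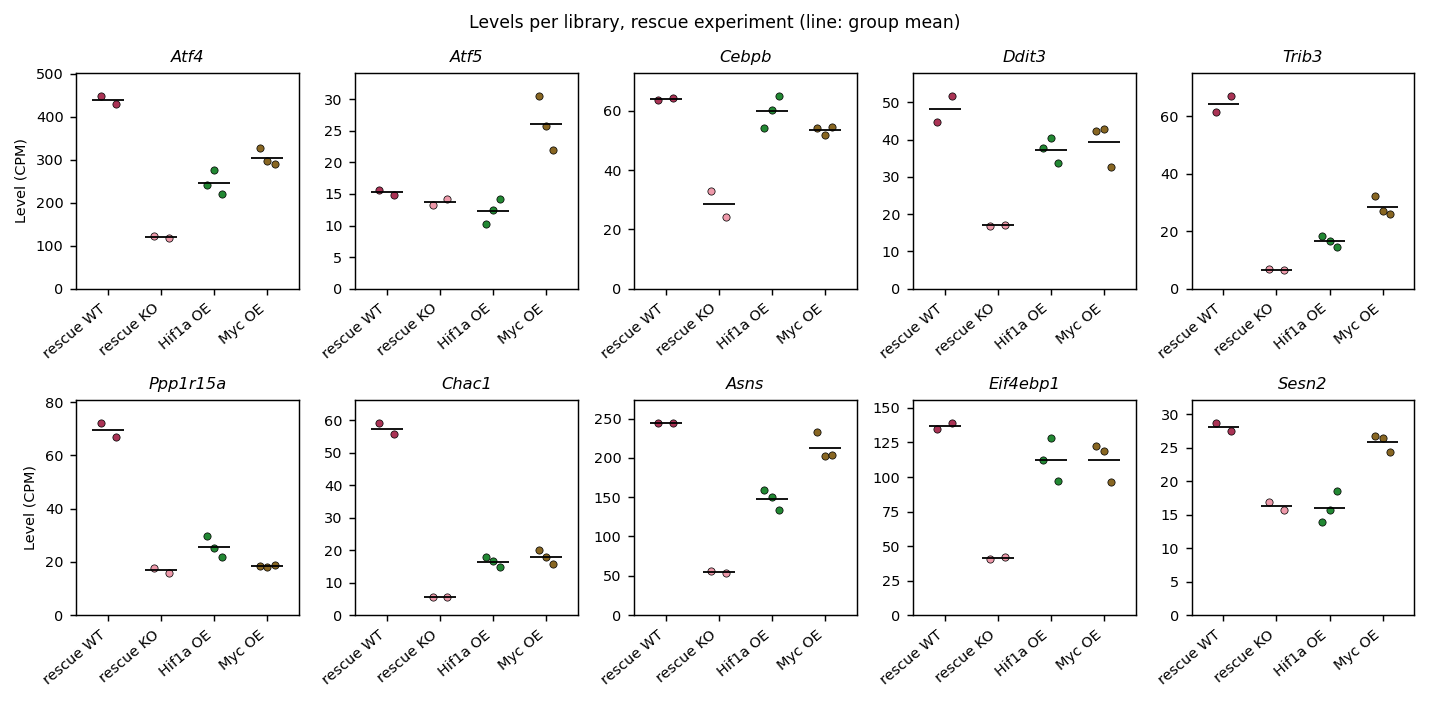
Level of each gene (vertical axis, CPM, from 0) in every library of the rescue experiment, with 2 points in rescue WT and rescue KO, 3 in Hif1a OE and Myc OE, and a line at the group mean. Atf4, Trib3, Chac1 and Ppp1r15a were highest in rescue WT and lowest in rescue KO, and Ppp1r15a stayed between 18.0 and 18.8 CPM in Myc OE.

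Related genes in 6 lists were counted beside the members. Among all genes tested, 22.2% were called higher and 22.0% lower in 3D WT against 2D WT, 19.7% and 25.3% in 3D KO against 3D WT, 3.86% and 3.17% in 2D KO against 2D WT, 11.1% and 16.1% in the interaction, 17.6% and 24.3% in rescue KO against rescue WT, 20.5% (5904 of 28730 genes) and 4308 genes in Hif1a OE against rescue KO, and 21.6% and 18.0% in Myc OE against rescue KO. Of the sensors and controls of the response (17 genes, the eIF2 kinases, eIF2 and eIF2B subunits and others), 12 were lower and none higher in 3D WT against 2D WT, with a median log2 difference of -0.49 beside 0.00 for all genes. Eif2s1, which encodes the eIF2 subunit that the kinases phosphorylate, averaged 112 ± 13.0 CPM (SD, n = 3) in 3D WT and 244 ± 13.4 CPM in 2D WT (-1.12 ± 0.11, SE). In 3D KO against 3D WT 8 were lower and 2 higher (median -0.21, but 0.17 with library totals). Impact, an inhibitor of the kinase GCN2, was one of the 2, with 51.3 ± 5.93 CPM in the libraries labelled 3D KO and 27.6 ± 3.75 CPM in 3D WT. It averaged 67.1 ± 0.48 CPM in rescue KO, 8.37 ± 1.83 CPM in Hif1a OE and 45.8 ± 7.37 CPM in Myc OE, and the Hif1a OE difference from rescue KO was -3.003 ± 0.17.

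Among the bZIP partners (10 genes), 6 were higher and 1 lower in 3D WT against 2D WT. Atf3, a stress-induced repressor and ATF4 target, led them with 32.0 ± 0.49 CPM in 3D WT and 1.71 ± 0.15 CPM in 2D WT (4.22 ± 0.22). It averaged 1.84 ± 0.74 CPM in the libraries labelled 3D KO (-4.12 ± 0.22 from 3D WT), where 6 of the list were lower and 1, Cebpa, was higher (median -0.37, but 0.02 with library totals). In the rescue experiment Atf3 averaged 43.3 ± 0.37 CPM in rescue WT, 3.01 ± 0.50 CPM in rescue KO, 11.9 ± 1.84 CPM in Hif1a OE and 5.23 ± 0.55 CPM in Myc OE, and it was called lower in Myc OE than in Hif1a OE (-1.19 ± 0.14). Jun, an AP-1 subunit, was lower in both overexpressing lines than in rescue KO (-1.05 ± 0.11 in Hif1a OE and -1.12 ± 0.11 in Myc OE), the opposite sign to Atf3.

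Of the ATF4 targets in amino acid supply (21 genes), 6 were higher, none lower and 15 not called in 2D KO against 2D WT. In 3D KO against 3D WT none was higher and 17 were lower, and in the interaction 17 were called negative and none positive. Cth, the last enzyme of cysteine synthesis from methionine, averaged 1.98 ± 0.40 CPM in the libraries labelled 3D KO and 11.3 ± 0.75 CPM in 3D WT (-2.51 ± 0.17). Slc7a11, the cystine transporter, averaged 24.5 ± 2.19 CPM and 67.4 ± 7.23 CPM (-1.46 ± 0.10). Aldh1l2, a mitochondrial folate enzyme, was higher in 2D KO than in 2D WT (1.03 ± 0.09) and lower in 3D KO than in 3D WT (-1.47 ± 0.09). Of the list, 15 genes were higher in Hif1a OE and 17 in Myc OE than in rescue KO, with none lower, and Psat1 and Phgdh of the serine pathway were among the first 4 of each. Psat1 averaged 142 ± 11.6 CPM in rescue KO, 452 ± 33.9 CPM in Hif1a OE and 719 ± 19.9 CPM in Myc OE.

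All 13 tRNA synthetase and tRNA export genes known as ATF4 targets were lower in 3D KO than in 3D WT (median -0.62, or -0.25 with library totals) and in rescue KO than in rescue WT (median -0.90). In 3D WT against 2D WT 9 were lower and none higher. Cars1, for cysteine, averaged 52.3 ± 2.81 CPM in the libraries labelled 3D KO and 140 ± 8.49 CPM in 3D WT (-1.42 ± 0.09). Of the 13, 11 were higher in Hif1a OE and 13 in Myc OE than in rescue KO. Among other ATF4 and CHOP targets (19 of 20 genes tested in 2D and 3D), 15 were higher and 1 lower in 3D WT against 2D WT, and 14 were lower and 2 higher in 3D KO than in 3D WT. Ero1a, an oxidase of the endoplasmic reticulum that CHOP and HIF-1 both drive, averaged 2567 ± 193 CPM in 3D WT and 92.9 ± 4.93 CPM in 2D WT (4.79 ± 0.11), and 667 ± 47.2 CPM in 3D KO. Gdf15, a secreted stress hormone, averaged 17.5 ± 0.96 CPM in 3D WT and 4.47 ± 0.91 CPM in 3D KO (-1.97 ± 0.17).

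The ATF6 and XBP1 arm of the unfolded protein response (20 genes), which runs beside ATF4, had calls in both directions. In 3D WT against 2D WT 5 were higher and 7 lower, in 3D KO against 3D WT 6 higher and 10 lower (median -0.23, but 0.16 with library totals), and in the interaction 4 were positive and 1 negative. These counts stand beside the shares of all genes given with the first list. Hspa5, the chaperone BiP, averaged 1858 ± 217 CPM in 3D WT and 1228 ± 114 CPM in the libraries labelled 3D KO (-0.60 ± 0.10), and 3003 ± 107 CPM in rescue WT and 845 ± 28.9 CPM in rescue KO (-1.83 ± 0.12). In rescue KO 16 of the 20 were lower and 2 higher than in rescue WT, 14 were higher and 3 lower in Hif1a OE than in rescue KO, and 9 were higher and 5 lower in Myc OE, with a median of 0.14 in Myc OE that turned to -0.19 with library totals. Over the 6 lists together, 68 genes were lower and 11 higher in 3D KO than in 3D WT, or 33 and 23 with library totals.

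**Figure D5:**
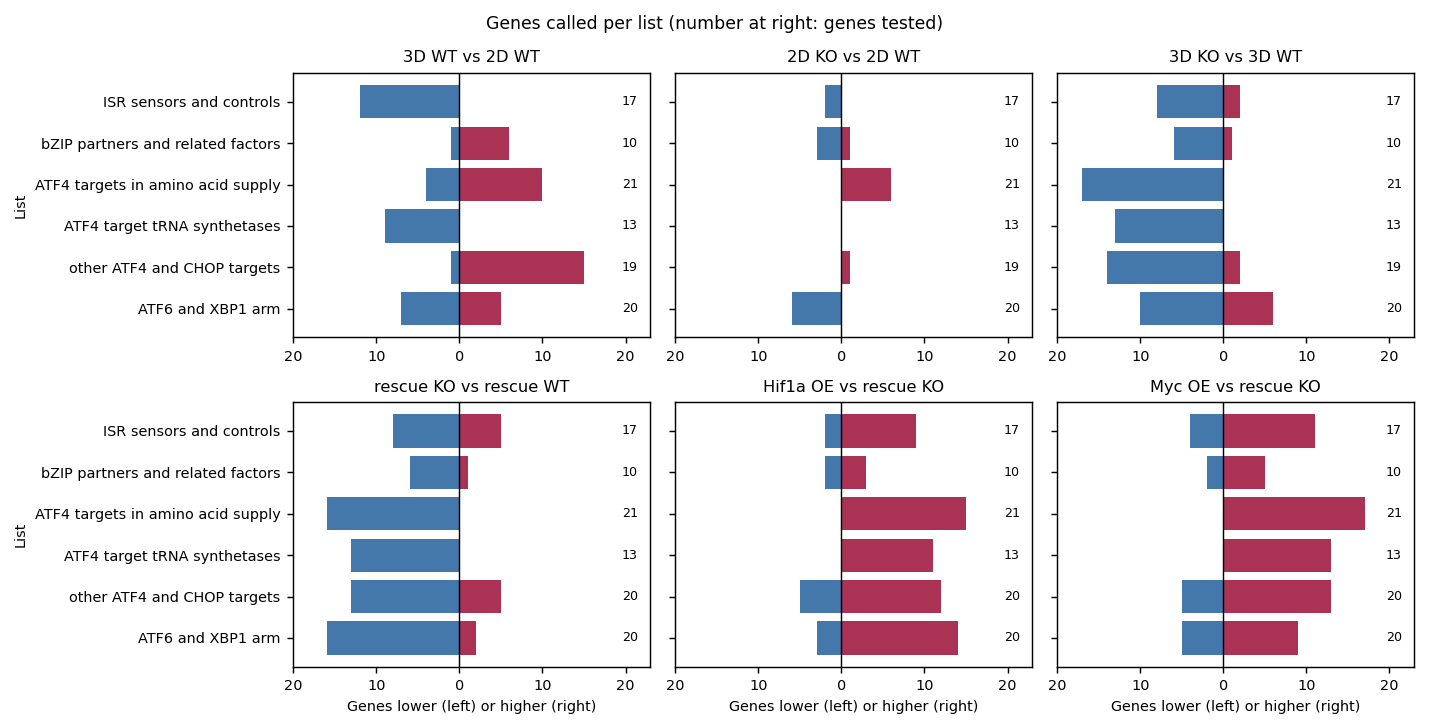
Number of genes called higher (red, to the right) and lower (blue, to the left) in each of 6 lists for 6 comparisons, with the number tested at the right of each row. All 13 tRNA synthetase genes were lower in 3D KO than in 3D WT and in rescue KO than in rescue WT, and the amino acid supply list had 6 genes higher in 2D KO and 17 lower in 3D KO.

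The genes most like the members were sought by correlation across libraries within each table, averaged over the 3 tables of 9, 12 and 10 libraries that share groups and scaling, and are given as a description. For the mean of the members' standardized log2 CPM they were Gapdh of glycolysis (mean r 0.945), Cth (0.939), the heparan sulfate proteoglycan Sdc4 (0.930), the hydroxylase Jmjd6 (0.929) and Ostf1 (0.906). For Atf4 alone they were Sars (Sars1), the tRNA synthetase for serine (0.971), the mitochondrial chaperone Hspa9 (0.954), Tubb6 (0.953), Tcp1 (0.949) and Gdi2 (0.948). By the mean over the tables Asns was the member closest to Atf4, with r of 0.847, 0.958 and 0.972 in the conditioned medium, culture and rescue tables. With Ddit3 its r was 0.723, -0.11 and 0.951, and with Trib3 0.685, -0.084 and 0.975, so in the rescue table Trib3 was as close to Atf4 as Asns was, while in the culture table r was near 0 for Ddit3 and Trib3.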

How the data were processed

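The authors aligned paired reads of stranded total RNA libraries to mouse GRCm38 (mm10) with HISAT2 and assembled and counted them with StringTie, and deposited raw gene counts in 3 tables, of 9, 12 and 10 libraries. Tool versions, annotation and strand setting of the counting are not given in the sources used here. The members and lists were chosen with earlier results of these data known. The labels of the rescue libraries name the cell line with a running number, while the study's methods name Panc02 for all.

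From the deposited counts, each table was fitted alone with edgeR 4.0.16 (R 4.3.3): filterByExpr by group, TMM scaling, all groups in one quasi-likelihood fit, Benjamini-Hochberg adjustment over 19207, 21367 and 28730 genes, calls at an adjusted p under 0.05. The script was tested on simulated data. Standard errors are the log2 difference divided by the root of F. Levels per kilobase used GENCODE M21 exon lengths. Named beside the 10 members are the label checks Cxcl5, Hif1a and Myc, up to 4 called genes with the largest difference and at least 1 CPM per list and comparison, and the 5 genes most correlated with the members and with Atf4. Marker lists for epithelial (5 genes), macrophage (6), fibroblast (4) and endothelial (3) cells checked the cells, and the endothelial genes summed to at most 3.17 CPM in any library. Alternatives were DESeq2 1.42.0, other scalings and filters, only the groups compared, a replicate block, each library left out, and summed entries of one symbol.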

Additional observations from a re-analysis of the deposited data

Results flagged for a closer look

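The genotype difference between KO and WT was not the same in 2D and 3D culture for 8 members, by the interaction test of edgeR's quasi-likelihood fit. The log2 difference in 3D minus that in 2D was -2.08 for Trib3, -1.93 for Asns, -1.75 for Chac1, -1.71 for Ppp1r15a, -1.45 for Eif4ebp1, -1.41 for Atf4, -1.01 for Sesn2 and -0.87 for Ddit3. All 8 values draw on every group of the 2D and 3D experiment. For Trib3, Asns, Chac1 and Sesn2 the 2D difference was also called, with the opposite sign to that in 3D. The 3 libraries labelled 3D KO enter each value. In them Cxcl5 mRNA was higher than in 3D WT, and epithelial markers summed to 187 to 219 CPM against 438 to 1083 CPM in the other groups. The part of that shift in the interaction was not tested. Groups of 2 or 3 libraries are too small for a test of single outlying libraries.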

How the results depend on the processing

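Of 140 log2 differences of members, 132 kept their side of the threshold with DESeq2's Wald test, 132 with DESeq2 size factors, 130 with at least 10 counts in every library, 136 with no filter, 125 with library totals and all 140 with summed entries of a symbol. With only the groups compared, 127 of 130 did, and the interaction could not be fitted that way. No called value turned its sign under these alternatives. Over all alternatives and libraries left out, 67 values called in neither setting did change sign, and they count as kept. Over every library left out in turn, 1448 of 1470 kept their call, 16 lost it and 6 gained it.

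Members called lower in 3D WT against 2D WT, 1 in the report, came to 0 with DESeq2 size factors, no filter, at least 10 counts, the Wald test or only the groups compared, to 2 with library totals, and to 0 to 1 with single libraries left out. Members higher in 3D KO against 3D WT came to 1 with library totals, in place of 0. Members lower in Myc OE against rescue WT, 4 in the report, came to 8 with DESeq2 size factors, at least 10 counts and the Wald test and to 9 with library totals.

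Over the 6 lists together, library totals gave 23 higher and 33 lower in 3D KO against 3D WT (11 and 68 in the report), 7 lower in 2D KO against 2D WT (11), 21 positive and 28 negative in the interaction (9 and 52), 40 higher in Hif1a OE against rescue KO (64) and 10 higher in Myc OE against rescue WT (25). At least 10 counts in every library gave 18 higher in 3D KO against 3D WT, 14 positive in the interaction and 16 higher in Myc OE against rescue WT, as DESeq2 size factors also did for the last (16). No filter gave 6 lower in 2D KO against 2D WT, and the Wald test gave 14 higher there (8) and 1 higher in M1-CM against Ctrl (0). With single libraries left out, the lists ran from 7 to 15 higher in 3D KO against 3D WT, from 5 to 11 higher and 4 to 11 lower in 2D KO against 2D WT, from 8 to 13 higher in rescue KO against rescue WT, from 9 to 16 lower in Myc OE against rescue KO, from 28 to 43 lower in Hif1a OE against rescue WT, and from 12 to 25 higher and 22 to 37 lower in Myc OE against rescue WT. Apart from the fewer libraries and genes that some alternatives use by construction, the cause was not tested.

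Replicate numbers in the labels recur across groups. Deviations of same-numbered libraries correlated at -0.24 to 0.36 (mean 0.037) in the conditioned medium table. They did so at -0.096 to 0.18 (mean 0.025) in the culture table and -0.025 to 0.050 (mean 0.004) in the rescue table. The highest values were for Ctrl 1 with M0-CM 1 (0.36) and Ctrl 2 with M0-CM 2 (0.25). Libraries of different number were not compared in this way, and the numbers were not taken as pairs. With the replicate number as a block, all 140 member differences kept their call, for example 8 members lower in 3D KO against 3D WT and 9 in rescue KO against rescue WT.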
